A study of Drosophila melanogaster with 3 samples.

Results

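The genes described here are the cytosolic ribosomal protein genes of *Drosophila melanogaster*, taken as every protein-coding gene of the Ensembl annotation whose symbol begins with RpL, RpS or RpLP followed by a digit. The rule found 92 of 13945 protein-coding genes, 54 of the large subunit (stalk genes included) and 38 of the small subunit. It works on symbols alone and uses no measured value. It leaves out sta, which encodes the small-subunit protein RpSA, and it takes in RpL7-like, RpL24-like and RpLP0-like, whose yeast counterparts act in ribosome assembly. The samples were 3 biological replicates in 1 group: whole embryos of both sexes pooled, 0 to 24 h old, of a transgenic line that carries CG12659 with GFP fused to its C terminus. Chromatin was recovered with an anti-GFP antibody and sequenced (ChIP-seq). The promoter that drives the transgene, the state of the native CG12659 gene and the number of independent insertions were not given by any source used here, and the control library was not analysed here.

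CG12659 is the fly counterpart of INO80C, a small subunit of the INO80 complex, which slides nucleosomes and acts on the histone variant H2A.Z beside promoters. Ribosomal protein genes encode the protein part of the ribosome, are transcribed strongly in nearly every growing cell, and are kept at matched output so that subunits assemble in balance. In flies most of their promoters start transcription within a pyrimidine tract, the TCT initiator, which is served by the TBP-related factor Trf2 in place of TBP, and the factors Dref and M1BP have been tied to them. Since whole embryos of mixed stages were used, more bound cells and more binding per cell cannot be told apart.

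The promoters below are those of the 4 ribosomal protein genes with the strongest CG12659-GFP regions, followed by the RpS19 paralogs, of which RpS19a has a region and RpS19b has none. Each stretch runs 5′ to 3′ on the gene's strand in release 6 (dm6) of the RefSeq genome sequence, from 120 bp before the annotated transcription start site (TSS), and the TSS is base 121 of 150. RpL7 lies on the plus strand at chr2L:10200884-10201033, RpS27 on the minus strand at chr3R:25247485-25247634, RpL34b on the minus strand at chr3R:9401197-9401346, and RpL14 on the plus strand at chr3L:8600886-8601035. RpS19a lies on the plus strand at chrX:16637774-16637923 and RpS19b on the minus strand at chr3R:23933501-23933650. Capitals mark the letters of the DNA replication-related element (DRE), the Motif 1 core, the CAGCTG E-box, CCGGAA on either strand, and CTTT at the start site.
RpL7: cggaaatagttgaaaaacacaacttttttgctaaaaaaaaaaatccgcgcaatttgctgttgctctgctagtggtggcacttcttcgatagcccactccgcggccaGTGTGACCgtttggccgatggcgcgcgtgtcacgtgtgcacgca
RpS27: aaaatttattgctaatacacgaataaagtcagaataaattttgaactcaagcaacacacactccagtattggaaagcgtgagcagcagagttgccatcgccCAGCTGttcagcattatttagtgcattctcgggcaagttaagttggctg
RpL34b: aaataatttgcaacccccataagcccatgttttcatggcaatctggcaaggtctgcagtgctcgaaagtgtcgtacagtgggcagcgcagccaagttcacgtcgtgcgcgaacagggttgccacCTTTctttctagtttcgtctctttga
RpL14: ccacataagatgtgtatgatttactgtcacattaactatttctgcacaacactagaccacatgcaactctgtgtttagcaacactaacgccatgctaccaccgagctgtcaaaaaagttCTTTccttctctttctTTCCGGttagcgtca
RpS19a: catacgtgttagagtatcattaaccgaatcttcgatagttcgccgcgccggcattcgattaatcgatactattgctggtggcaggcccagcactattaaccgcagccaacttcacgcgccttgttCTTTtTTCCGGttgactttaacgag
RpS19b: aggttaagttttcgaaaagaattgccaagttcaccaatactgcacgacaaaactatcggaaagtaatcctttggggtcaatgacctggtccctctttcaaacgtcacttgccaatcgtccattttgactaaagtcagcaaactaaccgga
In these stretches the summit, the base of highest enrichment in a region, was base 146 for RpL7, base 137 for RpS27, base 46 for RpL34b, base 104 for RpL14 and base 119 for RpS19a. The summit thus lay before the TSS in RpL34b, RpL14 and RpS19a and inside the first transcribed bases in RpL7 and RpS27.

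The deposited lists give regions with a summit and a signal, a score of the authors' peak caller, and hold no read counts, so the depth of each library is unknown. Lists of 30000, 30000 and 28466 regions were called for replicates 1, 2 and 3, and 30000 for the pooled reads. The reproducible set (irreproducible discovery rate, IDR) holds 8952 regions, which are the regions of highest signal in the pooled list. Signal was used as a rank within a list (1 is the highest) or as a percentile (100 is the highest). A gene was given the strongest summit within 500 bp of any of its TSSs.

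CG12659-GFP lay at the start of nearly every ribosomal protein gene. An IDR summit was found at 86 of the 92 (93.5%, exact 95% interval 86.3 to 97.6%) and at 5817 of 13853 other protein-coding genes (42%). Over all protein-coding genes the share was 42.3%. With summits within 500 bp of another gene's TSS left out, the count was 41 of 92, against 18.5% of other genes. By subunit, with all summits counted, it was 51 of 54 large-subunit genes and 35 of 38 small-subunit genes. The full lists gave the same picture, with 87 ribosomal protein genes in the pooled list, where 57.9% of all protein-coding genes had a summit. Replicate 1 gave 87 (58.9% of all protein-coding genes), replicate 2 gave 87 (57.8%) and replicate 3 gave 86 (55.7%). Each of the 86 had a summit in every replicate, as did 97.7% of the other genes with an IDR summit, and the 86 summits were all different regions. No test was made of these shares, since the genes are not replicates of a condition.

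The regions at these genes were also among the stronger ones. Counting the genes without a summit as last, the median IDR rank of the 92 was 1053, a rank that 1070 of the other protein-coding genes (7.72%) reached. Among genes with a summit, the median rank was 944 for the 86 ribosomal protein genes and 3052 for the other genes. Ranks of 1000 or higher were held by 44 ribosomal protein genes (47.8%), against 7.24% of other genes, and ranks of 500 or higher by 24 (26.1%), against 3.41%. Among the highest 100 regions were those of 2 of the 92 (2.17%), against 0.657% of other genes. At that rank the shares were larger for mitochondrial ribosomal protein genes (4 of 73, 5.48%) and translation factor genes (2 of 54, 3.7%).

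**Figure D1:**
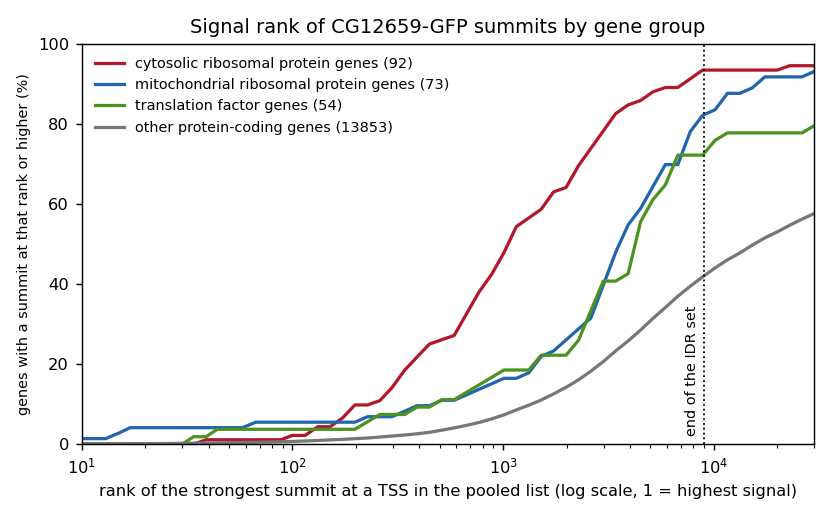
Share of genes in each group (y axis, %) whose strongest summit within 500 bp of a TSS has the given rank or a higher one in the pooled list (x axis, log scale). The red line of the 92 cytosolic ribosomal protein genes reaches 47.8% at rank 1000, where the mitochondrial ribosomal protein genes are at 16.4%, translation factor genes at 18.5% and other protein-coding genes at 7.24%.

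The ranks repeated between replicates. The median percentile over all 92 genes, with absent summits set to 0, was 96.67, 95.87 and 95.85 in replicates 1, 2 and 3 (mean 96.13 ± 0.47, SD, n = 3) and 96.49 in the pooled list. The same median for other protein-coding genes was 52.48, 46.06 and 34.57. All 3 replicates placed 32 ribosomal protein genes (34.8%) among their own highest 1000 regions, against 734 other genes (5.3%). Among the highest 8952 regions of each replicate they placed 85, against 35.9% of other genes. The median gene's percentile differed by 1.75 points between its highest and lowest replicate.

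RpL7, a large-subunit protein that binds ribosomal RNA, had the strongest region of the group. Its signal was 1252, 944 and 744 in replicates 1, 2 and 3, which are ranks 35, 45 and 38, and its IDR rank was 39 (signal 2945). Its percentile was 99.89, 99.85 and 99.87, within 0.033 points in all replicates. RpS27, a zinc-finger protein of the small subunit, had replicate ranks 96, 100 and 114 and IDR rank 99 (2121). RpL34b, the higher of a pair of RpL34 copies, had replicate ranks 110, 146 and 99 and IDR rank 116 (2018). RpL14, which hosts a snoRNA gene, had replicate ranks 78, 196 and 136 and IDR rank 126 (1972). These 4 genes were thus within the highest 200 regions of every replicate.

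The next 6 by IDR signal were RpL13A (1767, rank 165), RpL23A at the mouth of the exit tunnel (1745, rank 171), RpS25 (1670, rank 186), RpL41, the smallest ribosomal protein (1646, rank 190), RpL19 (1612, rank 195) and RpL28 (1492, rank 242). Of the 10 highest, 8 belong to the large subunit. The acidic stalk, which recruits translation GTPases to the ribosome, is encoded by RpLP0, RpLP1 and RpLP2. RpLP0 had IDR rank 296 (replicates 255, 395 and 296), RpLP1 rank 665 (replicates 463, 1083 and 858) and RpLP2 rank 654 (replicates 550, 777 and 872).

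At the lower end stood 6 genes with ranks between 4984 and 8735. RpL7-like ranked 8735 (signal 190), RpS15Ab 7761 (215), RpL21 7257 (231), RpL40 7028 (239), RpS5b 5264 (312) and RpS28a 4984 (326). The 6 include 4 paralog copies. RpL40, which is made as a fusion with ubiquitin, had replicate percentiles of 80.6, 72.75 and 71.47. RpS27A, the other ubiquitin fusion, had 97.88, 96.63 and 95.53, higher in every replicate. RpS6, the target of S6 kinase, had 91.6, 90.79 and 89.45 and IDR rank 3134. RpS3, at the mRNA entry site, had 87.75, 85.82 and 82.71 and IDR rank 4488, the lowest rank among small-subunit genes outside paralog families.

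Agreement between replicates was poorest for weak regions. Among genes with a summit in all replicates, wide percentile ranges were 13.9 points for RpL7-like (67.25, 73.56 and 59.64), 12.4 for RpL10Ab (82.85, 75.9 and 88.28), 12.3 for RpS5b (82.35, 81.06 and 70.07) and 9.13 for RpL40. The order of replicates differed among them, with replicate 3 the lowest for RpL7-like and RpS5b and the highest for RpL10Ab. RpL7 had the smallest range of the group.

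The large-subunit genes ranked higher than the small-subunit genes. Their median IDR rank was 742 against 1414, and 32 of 54 (59.3%) against 12 of 38 (31.6%) held rank 1000 or higher. In replicates 1, 2 and 3 the median percentile was 97.55, 97.01 and 96.54 for large-subunit genes, and 94.63, 94.94 and 93.76 for small-subunit genes. The difference of medians was 2.92, 2.07 and 2.78 points, positive in 3 of 3 replicates (mean 2.59 ± 0.46, SD, n = 3). The two-sided exact sign-flip permutation test over replicates gave p = 0.25, the smallest p that 3 replicates allow, so the design could not give a smaller one. In the pooled list the difference was 2.62, and it shrank to 0.22 when summits within 500 bp of another gene's TSS were left out. The genes of the subunits overlapped in every replicate. Of the genes in no paralog family, all 40 large-subunit and all 25 small-subunit genes had an IDR summit, with median ranks of 778 and 1592.

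**Figure D2:**
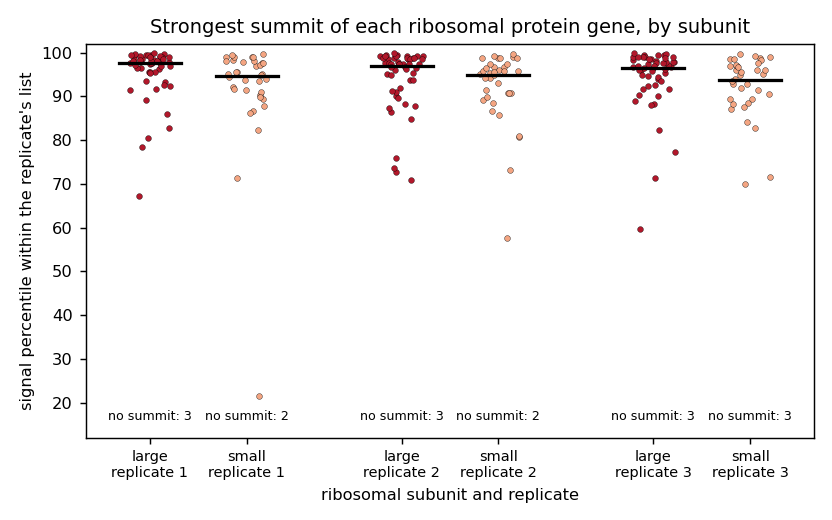
Signal percentile (y axis, 100 is the highest in the list) of the strongest summit of each ribosomal protein gene in each replicate, large subunit (dark) left of small subunit (light). Points are genes, bars are medians over all genes of the subunit with absent summits at 0, and the count of genes without a summit is printed below each column; the large-subunit median is higher in all 3 replicates, and the points overlap.

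The summits sat close to the start site. The median position of the 86 summits was 18.5 bp upstream of the nearest TSS (-18.5, quartiles -62.25 and 9.25), and 76 of them (88.4%) lay within 100 bp. For the 5817 other genes the median was -90 (quartiles -190 and -23), and 48.2% lay within 100 bp. Upstream of the TSS were 67.4% of the ribosomal protein summits, against 81.4% of the others. Over replicates the median position was -24.3 ± 10.1 bp against -86 ± 10.2 bp, and the share within 100 bp was 84.98 ± 4.71% against 44.16 ± 3.26% (SD, n = 3 each). The positions of the groups thus differed by more than the spread between replicates.

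Several features of the genes bear on a position, and the values within each are as follows. For genes with 1 annotated TSS, 42 of them ribosomal, the medians were -45.5 against -100, with 78.6% against 46.9% within 100 bp. For summits near no other gene's TSS, the medians were -3 for 39 ribosomal protein genes and -55 for other genes. For summits of rank 1000 or higher, the medians were -23.5 and -138, with 88.6% and 28.7% within 100 bp. The ribosomal protein summits were nearer to the start in each of these subsets. The same gene's summit moved by a median of 32 bp between replicates, against 51 bp for other genes with an IDR summit.

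**Figure D3:**
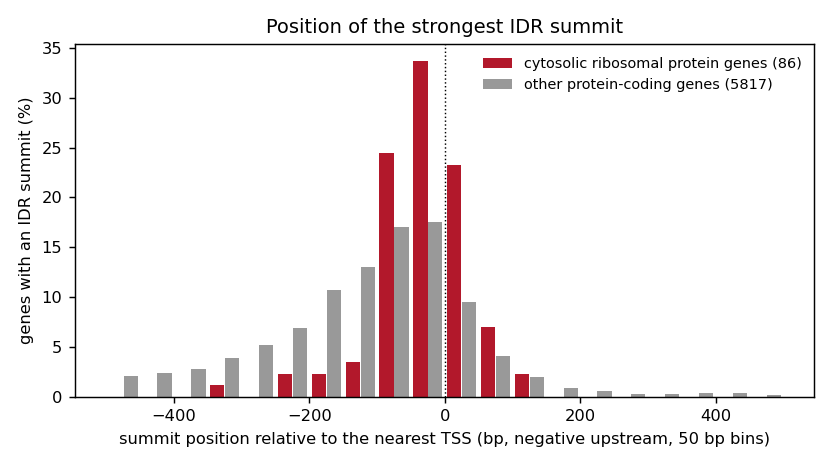
Share of genes (y axis, %) by position of the strongest IDR summit relative to the nearest TSS (x axis, bp, negative upstream, bins of 50 bp) for 86 ribosomal protein genes (red) and 5817 other genes (grey). The red bars stand within 100 bp of the start for 88.4% of genes, while the grey bars extend upstream, with 48.2% in that range.

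The summits furthest from a start were those of RpL10Ab (-322), RpLP2 (-229), RpS14a (-207), RpL6 (-188) and RpS20 (-154), each of them upstream. The RpL10Ab summit lay at -313, -317 and -312 in replicates 1, 2 and 3. It was nearer to the start of the divergent genes CG5946 and CG11597. RpLP2 had a second, lower IDR summit at -18, RpS14a at -8 and RpL10Ab at -15. The RpLP2 summit lay at -146, -222 and -171 and the RpS14a summit at -73, -198 and -125, so that the position varied between replicates in those genes.

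Most ribosomal protein genes have a neighbour transcribed away from them. A divergent partner, a gene on the other strand with a TSS within 1000 bp upstream, was annotated for 58 of 92 (63%), against 39.5% of other protein-coding genes. With a partner, 57 of 58 ribosomal protein genes had an IDR summit (98.3%), against 68.4% of other genes and 68.7% of all protein-coding genes of that kind. Without a partner, 29 of 34 had one (85.3%), against 24.7% of other genes and 25% of all. The median rank of the ribosomal protein genes was 961 with a partner and 922 without one. Among other genes it was 2659 with a partner and 3974 without.

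A summit within 500 bp of another gene's TSS was found for 47 of the 86 (54.7%), against 58.4% of the other genes with a summit. Of these 47, 39 (83%) were nearer to the ribosomal protein gene's own TSS, whereas 51.8% of such summits were nearer to the own TSS among other genes. The neighbours named here were picked for a role in translation or RNA processing and are not a count of such roles among the 47. RpL28 shared its region with eIF1, a start-codon selection factor (TSSs 381 bp apart), RpL13A with Dph4, of the pathway that modifies eEF2 (349 bp), and RpL4 with the spliceosome gene BCAS2 (465 bp). All 3 summits lay nearer to the ribosomal protein gene. The RpS15Ab summit lay 9 bp from the start of Lsm10, of the histone mRNA processing particle, and 45 bp from its own. The RpL34a summit lay about midway between its own start and that of Trmt61, a tRNA methyltransferase gene (114 bp from the Trmt61 start). Partners of the strongest members, named after their values were seen, were Ripalpha beside RpL7 (30 bp), Nup37, of the nuclear pore, beside RpS27 (144 bp) and Nelf-E, of the pausing factor NELF, beside RpL14 (127 bp). RpL13 (IDR rank 418) lies 84 bp from Dref, so that the gene of a factor tied to these promoters shares a region with one of them. For such pairs the signal cannot be assigned to either gene.

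All 6 ribosomal protein genes without an IDR summit were paralog copies. Of the 27 genes in 13 families, 21 had a summit, and of the 65 genes outside families, all 65 had one. Among all protein-coding genes 42.3% had one, and the share over paralogs of other gene families was not counted. RpL10Aa, RpL22-like, RpL37-2, RpS19b and RpS28-like had no summit within 500 bp in any list. The nearest IDR summit was 50446 bp away for RpL10Aa, 19766 bp for RpL22-like, 13587 bp for RpL37-2, 5449 bp for RpS28-like and 863 bp for RpS19b. RpS10a had weak regions at rank 23522 in replicate 1 and rank 12679 in replicate 2, and none in replicate 3. RpL22-like, RpS10a and RpS19b are known in flies for expression in the gonads, as is RpS5b, the lowest-ranked copy of its family.

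Each of those 6 genes had a sister copy with an IDR summit. Replicate percentiles were 99.13, 98.64 and 98.96 for RpL22, 98.4, 98.77 and 98.85 for RpS10b, and 96.87, 96.71 and 96.48 for RpL37-1. RpS19a had 94.85, 94.85 and 96.09, and RpS28b had 98.18, 96.74 and 98.41. RpL10Ab, as above, was the lowest of them. The third RpS28 gene, RpS28a, had 86.19, 80.8 and 88.22 and shares its region with Axn, a Wnt pathway scaffold gene 194 bp away.

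In the families with a summit at every copy the levels were mostly apart. RpL7 and RpL7-like differed most, at IDR ranks 39 and 8735. RpS15Aa stood at 93.81, 94.26 and 88.6 and RpS15Ab at 71.38, 73.22 and 71.66, without overlap. RpS5a stood at 95.63, 96.43 and 97.12 and RpS5b at 82.35, 81.06 and 70.07. Of the 7 families with an IDR summit at every copy, all 7 had the same copy higher in all 3 replicates.

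RpL24, at IDR rank 406, lay above RpL24-like at rank 3900, and RpLP0 at rank 296 lay above RpLP0-like at rank 1223. The RpLP0-like summit lay 16 bp from the start of 14-3-3zeta and 71 bp from its own. The RpL24-like summit lay 78 bp from both its own start and that of CG5276, and the RpS14a summit 184 bp from Dhdds and 207 bp from its own start. For these copies the signal cannot be assigned to either gene. RpL34b ranked above RpL34a without overlap, at 110, 146 and 99 in replicates 1, 2 and 3, against 530, 461 and 378. The RpS14 pair was close when each gene took its strongest summit. RpS14a had percentiles of 95.2, 95.85 and 96.08 and RpS14b had 97.68, 96.08 and 96.87, ranges that touch. In the IDR set the strongest RpS14a summit was the one nearer to Dhdds. The lower RpS14a summit, at -8, had IDR rank 2134 (signal 559.2), against rank 897 (849.5) for the RpS14b summit at -57. The coding sequences of RpS14a and RpS14b are 97.8% identical and those of RpS15Aa and RpS15Ab 98.2% identical, so reads near these genes could be shared between copies, and no source used here says how such reads were assigned. The other pairs were 46.9 to 78.2% identical.

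**Figure D4:**
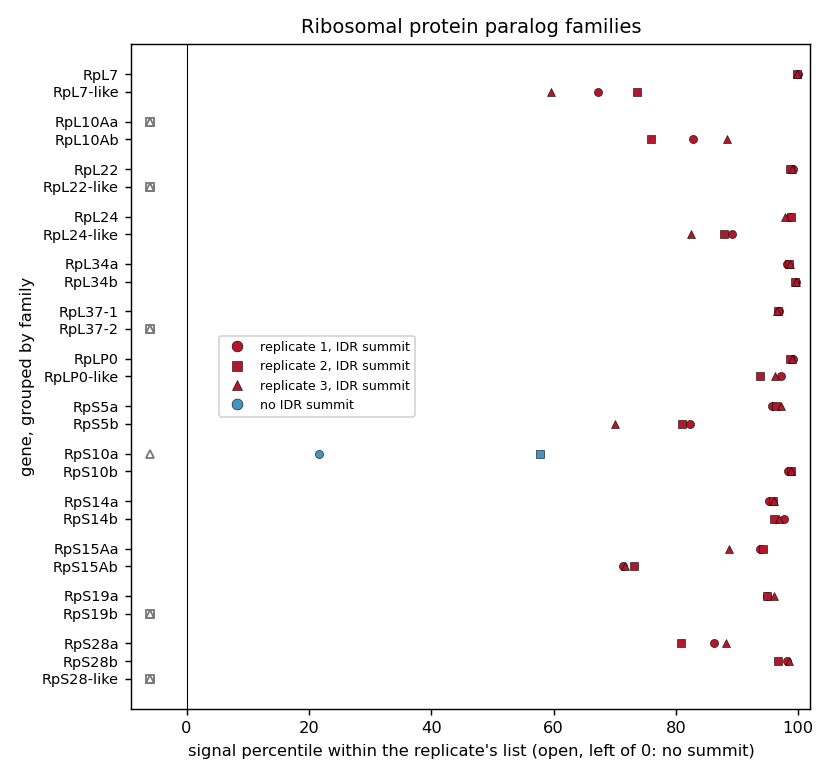
Signal percentile (x axis, 100 is the highest) of each copy of the 13 ribosomal protein paralog families (y axis, families separated by gaps) in replicate 1 (circle), 2 (square) and 3 (triangle). Red genes have an IDR summit, blue marks are the weak regions of RpS10a, and open marks left of 0 show a replicate without a summit; in the 7 families with an IDR summit at every copy, the same copy is higher in all 3 replicates.

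Genes of related function had lower-ranked regions at the median than the cytosolic ribosomal protein genes, and IDR summits at a smaller share. Of 73 mitochondrial ribosomal protein genes 60 (82.2%) had an IDR summit, with a median rank of 3040, and of 54 translation factor genes 39 (72.2%) had one, with a median rank of 2835. Of 61 ribosome assembly and RNA polymerase I genes 48 (78.7%) had one, with a median rank of 3089. The cytosolic ribosomal protein genes with a summit had a median rank of 944 and other genes 3052. In the full replicate lists the shares were not all smaller: 95.9% of mitochondrial ribosomal protein genes had a summit in replicate 1, against 94.6% of the cytosolic ones. No test of these differences was made. Within these lists mRpL41 (rank 8), mRpS10 (rank 14), mRpS23 (rank 16) and eIF4EHP, a translation repressor gene (rank 32), had stronger regions than RpL7 at rank 39. The gene eIF6, whose product keeps the subunits apart, came next at rank 41. The summits lay at -138 for mRpL41, -132 for mRpS10, -393 for mRpS23, -221 for eIF4EHP and -103 for eIF6, and at 25 for RpL7. Whether the regions named from these lists also lie near another gene's TSS was not examined, so they may not belong to the named genes alone.

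The translation factor genes shared the position near the start, with a median of -32 and 76.9% within 100 bp. The mitochondrial ribosomal protein genes (-101, 48.3%) and the assembly genes (-99, 47.9%) had medians near that of other genes. Among 7 genes known to act on ribosomal protein genes or their mRNAs, Dref (IDR rank 418), M1BP (577), the Myc partner Max (1363), the translation inhibitor Thor (2284), S6k (2833) and Trf2 (3665) had an IDR summit. Myc had none within 500 bp in the IDR set. Among all protein-coding genes 42.3% had an IDR summit. The Dref region is the one already counted for RpL13, with its summit 1 bp from the RpL13 start and 85 bp from that of Dref.

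The promoters of the 92 genes, from 250 bp before to 50 bp after the start of the canonical transcript, were searched for short motifs. The DRE letters TATCGATA, bound by Dref, were found in 28 (30.4%), against 8.94% of all protein-coding promoters and 16.2% of those with an IDR summit. The Motif 1 core GGTCACAC, on either strand like the DRE, was found in 13 (14.1%), against 7.54% of all and 14.5% of those with a summit. The E-box CAGCTG was found in 9 (9.78%), against 17.9% of all, and GAGAGAG on either strand in none of the 92, against 6.2% of all. TATAAA on the gene's strand was found in 30 (32.6%), against 32.2% of all promoters. Within 100 bp each side of the TSS it was found in 8 (8.7%), against 20.9% of all, so the comparison depends on the window. A match is a description of letters and does not show that a factor binds.

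Letters at the start site were searched on the gene's strand. CTTT, part of the pyrimidine initiator, began within 5 bp of the TSS in 42 of 92 (45.7%, exact 95% interval 35.2 to 56.4%), against 5.72% of all protein-coding promoters. TCAGT, letters of the standard initiator, was in none of the 92, which allows a share of up to 3.93% (exact 95% interval), against 11.3% of all. Within the group the median IDR rank was 1081 with CTTT at the start and 922 without it, and 1089 with a DRE and 912 without it. All 28 genes with a DRE had a summit, as had 58 of 64 ribosomal protein genes without a DRE. With CTTT at the start 41 of 42 had a summit, and without it 45 of 50. Over all protein-coding genes a summit was found at 955 of 1247 with a DRE and at 357 of 798 with CTTT at the start.

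**Figure D5:**
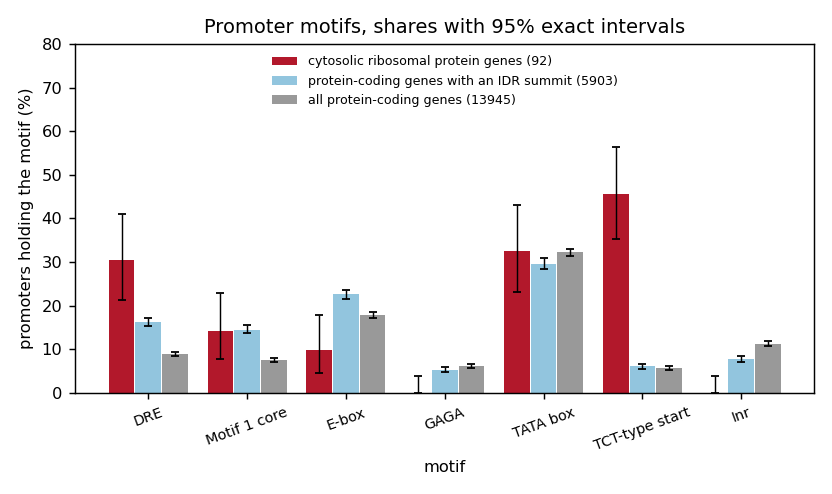
Share of promoters holding each motif (y axis, %; bars start at 0, error bars are exact 95% intervals of counting error) in 92 ribosomal protein genes (red), protein-coding genes with an IDR summit (blue) and all protein-coding genes (grey). The pyrimidine start (CTTT within 5 bp of the TSS) is at 45.7% in red against 5.72% in grey, and the DRE at 30.4% against 8.94%.

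Letters within 75 bp of the summits were also counted, and were picked after their counts were seen, so they carry no test. Summits lay within 100 bp of a TSS for 88.4% of ribosomal protein genes and 48.2% of other genes. The windows thus cover the start site unequally, and the counts were not matched for position. The letters TTCTTT below contain the CTTT sought at the start site above. CCGGAA or its reverse complement TTCCGG stood near 28 of 86 ribosomal protein summits (32.6%), against 2.9% of 5630 other promoter summits, and RpL14 and RpS19a above show it just after the start. It was on the gene's strand as TTCCGG in 25 genes (29.1%) and as CCGGAA in 5 (5.81%), against 1.81% and 1.62% of other genes with a summit. AAAGAA or TTCTTT stood near 45 (52.3%), against 17.6%, as TTCTTT on the gene's strand in 43 (50%) and as AAAGAA in 2 (2.33%), against 9.3% and 9.87% of other genes. The counts of the 2 strands were thus uneven in the ribosomal protein genes and near even in the others, as a description without a test. Genes with CCGGAA had a median IDR rank of 978.5 and those without it 941.5.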

How the data were processed

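ChIP-seq of CG12659-GFP was made from sonicated chromatin (fragments of 200 to 800 bp, per the labels) in 3 biological replicates in 1 group. The labels do not say whether these were separate embryo collections, so p-values may measure technical spread. The antibody field names CG12659 and the description anti-GFP, which was followed. The authors deposited region lists for each replicate, for pooled replicates and for an IDR set, with a signal per region whose scale differs between lists. Not given in the sources used here were aligner, peak caller, versions, thresholds and the handling of reads with several matches. The lists hold no counts, so depth is unknown.

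From the dm6 lists, summits were joined to TSSs of Ensembl release 115 (BDGP 6.54), without transposable elements. A gene took its strongest summit within 500 bp of any TSS. Positions run along the gene's strand to the nearest TSS. Percentiles rank the signal within a list. Motifs were sought in the RefSeq genome sequence (release 6). Coordinates are 1-based. Intervals are exact (Clopper-Pearson, 95%) and cover counting error only. Only the difference between subunits was tested, by exact sign flips over replicates.

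The members and gene lists were chosen with earlier results of these data known. Named were the 10 highest and 6 lowest members, those without a summit, paralogs, the 5 widest ranges, the 5 furthest summits, shared neighbours of translation or RNA processing, stalk genes, RpS3, RpS6, RpS27A and RpL40. Other named neighbours, and RpL13, were chosen after their values were seen. A gene the rule would name is not reported here. Symbols that matched no gene, 8 assembly genes and 2 regulators, were left out. Alternatives were TSS distances of 200 and 1000 bp, canonical TSSs, the nearest summit, the stronger part of the IDR regions, the pooled list, shared summits or paralogs left out, a divergent distance of 500 bp, a motif window of 100 bp each side of the TSS, and each replicate left out. On simulated data the summit assignment was tested and recovered what was put in. Python 3.11.15, numpy 2.4.6, scipy 1.17.1, biopython 1.88 and matplotlib 3.10.9 were used.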

Additional observations from a re-analysis of the deposited data

How the results depend on the processing

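With summits near another gene's TSS left out, 41 of 92 ribosomal protein genes kept a summit (18.5% of other genes did), the median percentile was 92.97, the median position was -3 bp and the share upstream was 56.1%. A divergent distance of 500 bp left 37 genes with both a partner and a summit, against 57 at 1000 bp. Fewer genes have a partner at the shorter distance. At either distance RpS19b, with a partner at 382 bp, was the only ribosomal protein gene with a partner and no summit. With 1 replicate left out, no new IDR step was run, and a region was kept where the highest 8952 regions of both remaining replicates overlapped (7708, 7669 and 7918 regions without replicates 1, 2 and 3). The count with a summit was then 85 each time, against 37 to 38.8% of other genes, the median percentile was 95.85 to 96.29, the median position was -30.75 to -18.5 bp, and 64.37 to 69.77% of summits lay upstream. Without replicate 2 the position moved most. The difference between subunits kept its sign under every alternative run, at 0.22 to 3.64 points. With the stronger part of the IDR regions, 78 ribosomal protein genes and 28.5% of other genes had a summit. The paralog copies without a summit were 6, and 4 with a TSS distance of 1000 bp. With the motif window of 100 bp each side of the TSS, the TATAAA share fell from 32.6% to 8.7%, and over all protein-coding promoters from 32.2% to 20.9%. The other results moved by less than the spread between replicates, or for counts, those of the other motifs included, by less than 1.5 times. No paired analysis was possible because there is 1 group. Depth cannot be weighed, since the lists hold no counts, and regions below the end of each list are not seen.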

Other observations

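Beside the strongest summit, 36 of the 86 ribosomal protein genes with an IDR summit (41.9%) had a second IDR summit within 500 bp of a TSS, against 27.8% of other genes with a summit having 2 or more. The summits of a gene lay 199 to 399 bp apart, with a median of 206 bp, close to the smallest value. The spacing in other genes was not counted. Whether the peak caller sets a least distance between summits is not known and was not tested. RpL28 had its second at -258 (rank 492, against 242 for the first), and RpL34b at -287 (rank 920, against 116). No ribosomal protein gene had more than 2.

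Ribosomal protein genes that host a snoRNA, of the kind that guides modification of ribosomal RNA, all had an IDR summit (28 of 28, median rank 853.5), and 58 of 64 without a snoRNA had one (median rank 992.5). Over the whole group it was 86 of 92. The genes without a summit were all paralog copies, and none of them hosts a snoRNA. The share over all protein-coding genes that host a snoRNA was not counted. By chromosome arm, a summit was found at 18 of 19 genes on 2L, 19 of 21 on 2R, 14 of 14 on 3L, 20 of 23 on 3R and 14 of 14 on X, against 39.8, 41.5, 41.7, 42.4 and 44.4% of other protein-coding genes on those arms. RpS3A, the one such gene on chromosome 4, ranked 1107, with replicate percentiles of 97.74, 95.64 and 92.94, and 63.3% of the other genes there had a summit. None of these differences was tested.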
